A study of Mus musculus with 4 samples.

Results

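Cytotoxic granules are secretory lysosomes in which CD8 T cells store perforin and granzymes. Inside the granule these proteins are held on the proteoglycan serglycin, and cathepsins trim and activate the proteases. When the T cell receptor is engaged, the granule is tethered at the immune synapse by a Rab GTPase, primed by a Munc13 protein and fused with the plasma membrane by a syntaxin and its Munc18 chaperone. The genes described here encode that cargo and that machinery, leaving out perforin and the granzymes themselves. They are Srgn (serglycin, the matrix), Nkg7 and Lamp1 (granule membrane proteins), Ctsw and Ctsc (cathepsins), Cst7 (cystatin F, an inhibitor of cysteine cathepsins), and the docking and fusion genes Rab27a, Unc13d, Stx11 and Stxbp2. All 10 were picked by gene symbol, with earlier results of these data known. All 10 were found among the 15367 symbols of the expression table, and all 10 passed the filter on low values that left 9805 genes for testing.

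RNA was sequenced from hepatic CD8 T cells, isolated on a cell sorter, of adult C57BL/6 mice that had been fed an MCD diet for 4 weeks. The libraries labelled Prf KO (n = 2) came from perforin knockout mice and the WT libraries (n = 2) from wild type mice, and every mouse had received the diet. The series frames the comparison as one of the immunoregulatory role of perforin in diet-induced steatohepatitis. The sources used here do not give the knockout allele, any pooling of animals or whether replicates came from separate mice. The p-values therefore reflect library-to-library spread, which may be technical. No unit is stated for the values. They were taken to be FPKM, fragments scaled to transcript length and to library size, and their depth is unknown.

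Prf1, the targeted gene, had 95.4 and 98.7 FPKM in the libraries labelled Prf KO, against 125 and 113 FPKM in WT libraries. The gene-level value therefore did not check the labels, and each direction below rests on the labels alone. The defining T cell genes Cd8a, Cd8b1, Cd3d, Cd3e and Cd3g were detected throughout and summed to 1736 and 1511 FPKM in the libraries labelled Prf KO, against 1670 and 1730 FPKM in WT libraries. Cd3d (128 and 159 FPKM, against 170 and 199 FPKM in WT) was lower in both libraries labelled Prf KO. Cd3g (89.4 and 114 FPKM, against 130 and 186 FPKM in WT) was lower in both too. The groups overlapped for Cd8a, Cd8b1 and Cd3e. The library labelled Prf KO replicate 1 stood apart from the others. Across genes (not independent replicates) it correlated with them at Pearson values of 0.914 to 0.924, against 0.961 to 0.969 among the other 3.

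The granule genes spanned a wide range of RNA levels with a nearly fixed order. The highest member exceeded the lowest by 44.9-fold and 58.1-fold in the libraries labelled Prf KO and by 98.7-fold and 102-fold in WT libraries. These levels and their order rest on the values being length-scaled, which was assumed. In each of the 4 libraries Nkg7 and Srgn held the top 2 places, Ctsw came next, Ctsc and Lamp1 followed in either order, and then came Cst7, Rab27a, Stxbp2, Unc13d and Stx11. Neighbours at the top were not separated by their spread: Nkg7 averaged 546 ± 77.8 FPKM and Srgn 473 ± 155 FPKM (SD over 4 libraries), and Srgn was the higher of them in WT replicate 2. Lamp1 (202 ± 38.1 FPKM) and Ctsc (189 ± 21.9 FPKM) also changed places. From Ctsc downward each member's range lay clear of the next. Cargo and membrane genes thus stood above the docking and fusion genes, of which the priming factor Unc13d (12.6 ± 1.69 FPKM, SD over 4 libraries) and the syntaxin Stx11 (7.95 ± 1.86 FPKM) were the weakest.

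**Figure D1:**
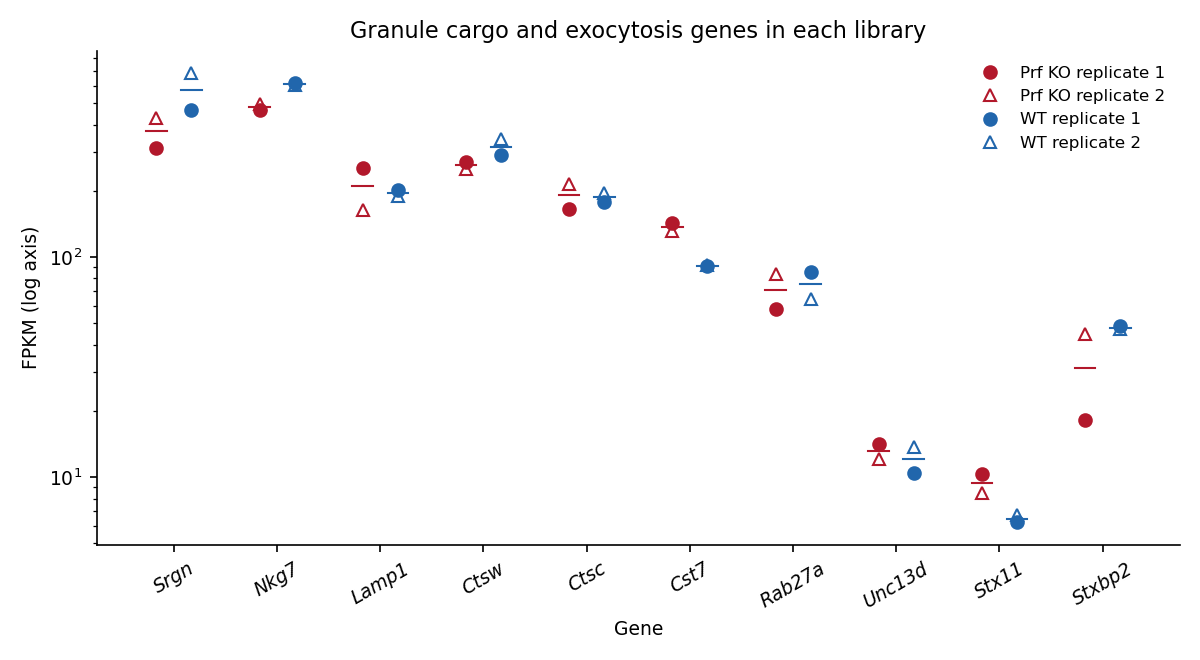
FPKM of the 10 granule genes in each library on a log axis, with the libraries labelled Prf KO in red, left of the WT libraries in blue. Symbols stand for single libraries and short bars for group means; Cst7 and Stx11 lie higher in both libraries labelled Prf KO, and Srgn, Nkg7, Ctsw and Stxbp2 lower in both, while the other 4 genes overlap.

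Without rescaling, the members with the highest RNA levels, Nkg7, Srgn and Ctsw, lay lower in both libraries labelled Prf KO. The inhibitor Cst7 and the syntaxin Stx11 lay higher in both. For Srgn and Ctsw this depended on the scale: their groups overlapped after the rescaling to CD8 T cell genes described below. None of the 10 members passed the test over all genes (limma's moderated test, Benjamini-Hochberg adjusted p under 0.05), and neither did any other gene, a background of 0%. At an unadjusted p under 0.05 there was 1 member of 10, Cst7, against 4.79% of all 9805 tested genes (470 genes). The members' count was 0 without the intensity trend, where 457 of all tested genes passed. With the replicate block it was 1 (Srgn in place of Cst7), where 542 of all tested genes passed. The groups did not overlap for 6 members. Of these, 2 were higher in both libraries labelled Prf KO, where 13.9% of all tested genes were, and 4 were lower in both, where 21.9% were. The fitted log2 fold change, labelled Prf KO minus WT on the log2(FPKM + 1) scale, had a median of -0.038 over the 10 members and -0.080 over all tested genes. Its median size regardless of sign was 0.31 over the members and 0.27 over all tested genes.

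Srgn encodes serglycin, whose sulphated sugar chains bind granzymes and perforin. It had 314 and 430 FPKM in the libraries labelled Prf KO, against 465 and 685 FPKM in WT libraries. The groups did not overlap, but the highest Prf KO value and the lowest WT value lay close together, and the WT replicates differed more from each other than that gap. The log2 fold was -0.62 (SE 0.30, 95% interval -1.31 to 0.07, limma adjusted p = 0.866). It was -0.34 without WT replicate 2 and -0.39 without the library labelled Prf KO replicate 1.

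Nkg7, a granule membrane protein needed for efficient degranulation in mouse cytotoxic lymphocytes, had 465 and 494 FPKM in the libraries labelled Prf KO, against 616 and 608 FPKM in WT libraries. Replicates lay close together in both groups and the groups were clearly apart. The log2 fold of -0.35 (SE 0.25, 95% interval -0.93 to 0.22, limma adjusted p = 0.866) stayed between -0.40 and -0.31 when any 1 library was left out. Lamp1, the lysosomal membrane protein CD107a that appears at the cell surface after degranulation, had 254 and 164 FPKM in the libraries labelled Prf KO, against 202 and 189 FPKM in WT libraries. Both WT values lay between the Prf KO values. Its log2 fold was 0.064 (SE 0.28, 95% interval -0.58 to 0.71, limma adjusted p = 0.973), and -0.25 without the library labelled Prf KO replicate 1.

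The cathepsin genes differed in whether their groups overlapped. Ctsw encodes cathepsin W, a papain-family protease restricted largely to cytotoxic lymphocytes. It had 269 and 252 FPKM in the libraries labelled Prf KO, against 291 and 342 FPKM in WT libraries, without overlap (log2 fold -0.27, SE 0.25, limma adjusted p = 0.882). The fold was -0.16 without WT replicate 2. Ctsc encodes cathepsin C, the dipeptidyl peptidase that removes the propeptide of granzymes. It had 166 and 216 FPKM in the libraries labelled Prf KO, against 178 and 196 FPKM in WT libraries, with the WT values inside the Prf KO range. Its log2 fold was 0.021 (SE 0.25, 95% interval -0.56 to 0.60, limma adjusted p = 0.989), and it changed sign when either WT replicate 1 (-0.049) or the library labelled Prf KO replicate 2 (-0.17) was left out, and was 0.21 without the library labelled Prf KO replicate 1.

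Cst7 encodes cystatin F, an inhibitor that reaches granules and lysosomes and acts on cathepsin C among other cysteine cathepsins. Cst7 had 143 and 132 FPKM in the libraries labelled Prf KO, against 91.0 and 91.6 FPKM in WT libraries. The WT replicates were nearly equal and both libraries labelled Prf KO lay well above them. The ratio of group means was 1.503. The log2 fold was 0.58 (SE 0.23, 95% interval 0.046 to 1.12), with an unadjusted limma p of 0.0366 and an adjusted p of 0.866. It stayed between 0.53 and 0.64 when any 1 library was left out. By an exact two-sided permutation test, p was 0.3333 for each of the 6 members without overlap, the smallest that 2 against 2 libraries allow.

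Among the docking and fusion genes Stx11 and Stxbp2, which encode partners in granule fusion, differed in opposite directions. Rab27a, the GTPase that docks granules at the plasma membrane and whose human counterpart is mutated in Griscelli syndrome, had 57.9 and 83.4 FPKM in the libraries labelled Prf KO, against 85.9 and 64.4 FPKM in WT libraries. The groups overlapped, with a log2 fold of -0.096 (SE 0.28, 95% interval -0.75 to 0.55, limma adjusted p = 0.959) that was 0.16 without the library labelled Prf KO replicate 1 and 0.11 without WT replicate 1. Unc13d, which encodes the priming factor Munc13-4, had 14.2 and 12.1 FPKM in the libraries labelled Prf KO, against 10.5 and 13.8 FPKM in WT libraries. These also overlapped (log2 fold 0.11, SE 0.30, 95% interval -0.56 to 0.79, limma adjusted p = 0.954), and the fold was 0.0069 without the library labelled Prf KO replicate 1, -0.070 without WT replicate 1 and 0.30 without WT replicate 2.

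Stx11 encodes syntaxin 11, a target-membrane SNARE held in the membrane by lipid anchors. It had 10.3 and 8.50 FPKM in the libraries labelled Prf KO, against 6.25 and 6.72 FPKM in WT libraries. Both libraries labelled Prf KO lay above both WT libraries (log2 fold 0.47, SE 0.31, 95% interval -0.24 to 1.18, limma adjusted p = 0.866), with 0.34 to 0.60 when any 1 library was left out. Stxbp2 encodes Munc18-2, the chaperone of syntaxin 11. It had 18.2 and 44.7 FPKM in the libraries labelled Prf KO, against 48.5 and 47.1 FPKM in WT libraries. The low value came from replicate 1 of the Prf KO group alone, and replicate 2 lay just under the WT values. The log2 fold of -0.72 (SE 0.39, 95% interval -1.61 to 0.17, limma adjusted p = 0.866) was -0.092 without the library labelled Prf KO replicate 1 and -1.34 without replicate 2 of that group. In humans, loss of UNC13D, STX11 or STXBP2 causes familial haemophagocytic lymphohistiocytosis, as loss of PRF1 does.

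**Figure D2:**
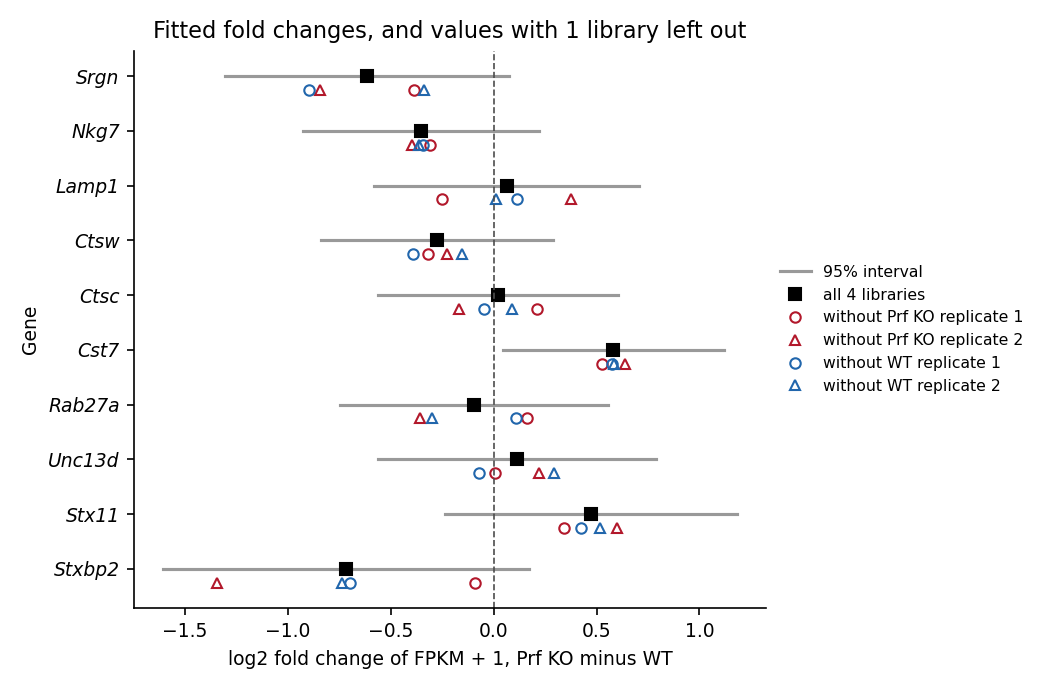
Fitted log2 fold change of FPKM + 1, libraries labelled Prf KO minus WT, for each granule gene (black squares, all 4 libraries) with its 95% interval in grey; open symbols show the fold with 1 library left out, red for a Prf KO library and blue for a WT library. The Cst7, Stx11 and Nkg7 folds keep their sign and size, Srgn, Ctsw and Stxbp2 keep their sign but not their size, and Lamp1, Ctsc, Rab27a and Unc13d change sign.

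When 1 library was left out, 4 of the 10 members changed sign and 7 changed sign or moved by over 1.5 times in at least 1 case. Cst7, Stx11 and Nkg7 were the exceptions. With the library labelled Prf KO replicate 1 left out, its lone partner lay above both WT libraries for 3 members (Ctsc, Cst7 and Stx11), where 31.9% of all tested genes were, and below both for 5 (Srgn, Nkg7, Lamp1, Ctsw and Stxbp2), where 34.2% were.

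The scale set between libraries shifted all members together. The CD8 T cell gene scale rests on 5 genes. Cd3d and Cd3g among them were themselves lower in both libraries labelled Prf KO. After rescaling to the geometric mean of the 5 CD8 T cell genes above, the median log2 fold of all tested genes was 0.085, a shift of 0.16, and the share of genes higher in both libraries labelled Prf KO was 24.5%, with 9.4% lower in both. On that scale 3 members were higher in both (Cst7, Unc13d and Stx11) and 1, Nkg7, was lower in both. After upper-quartile rescaling 2 were higher in both (Cst7 and Stx11), where 17.4% of all tested genes were, and 3 were lower in both (Srgn, Nkg7 and Stxbp2), where 18.5% were. Relative to the median of all tested genes, Cst7 stood at 0.66 without rescaling and 0.68 on the CD8 T cell gene scale, Stx11 at 0.55 on both, and Nkg7 at -0.27 and -0.25. Of the 10 members, Cst7 and Stx11 were higher and Nkg7 lower in both libraries labelled Prf KO on every scale. These were no rescaling and upper-quartile, median, quantile and CD8 T cell gene scaling. After median scaling 14.3% of all tested genes were higher in both and 20.9% lower, and after quantile scaling 16.7% and 19.1%. All scales re-express the same 4 libraries, so they are not separate evidence. The share of all tested genes that lay apart on every scale was not computed.

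**Figure D3:**
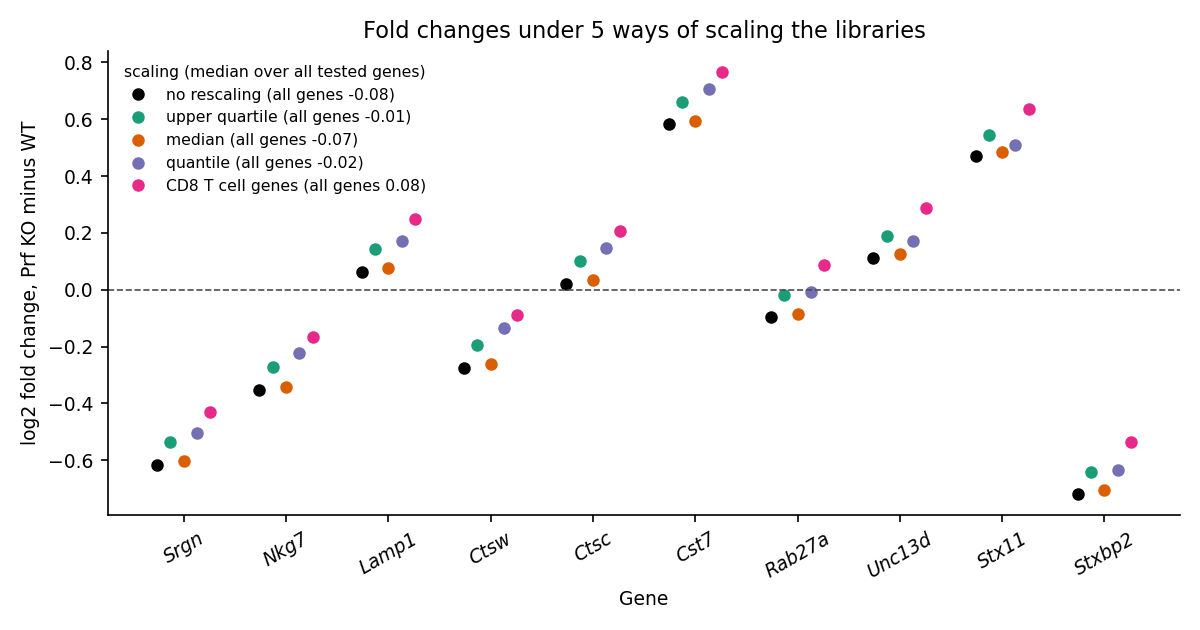
Log2 fold change of each granule gene, libraries labelled Prf KO minus WT, under 5 ways of scaling the libraries (colours; the legend gives the median over all tested genes). All 4 rescalings move every gene upward, and Rab27a is the member whose sign changes, at -0.096 without rescaling and 0.088 on the CD8 T cell gene scale.

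Ratios formed within a library do not depend on a common scaling factor. They were computed for 3 pairs of genes whose products act on each other, chosen after the values were seen and given as a description. The ratio of Cst7 to Ctsc, the inhibitor to its target, was 0.860 and 0.611 in the libraries labelled Prf KO, against 0.512 and 0.468 in WT libraries. Both Prf KO ratios lay above both WT ratios, and the mean log2 ratio differed by 0.57 (0.32 without the library labelled Prf KO replicate 1 and 0.81 without replicate 2 of that group). The ratio of Stx11 to Stxbp2 was 0.567 and 0.190 in the libraries labelled Prf KO, against 0.129 and 0.143 in WT libraries. This difference of 1.27 in mean log2 ratio rested largely on the library labelled Prf KO replicate 1, without which it was 0.48; without replicate 2 of that group it was 2.06. The ratio of Unc13d to Rab27a was 0.244 and 0.145 in the libraries labelled Prf KO, against 0.122 and 0.214 in WT libraries, and the groups overlapped. The ratio of Cst7 to Nkg7, picked for its difference, was 0.307 and 0.267 in the libraries labelled Prf KO, against 0.148 and 0.151 in WT libraries. The groups had to lie apart for Stx11 over Stxbp2 and for Cst7 over Nkg7. In each pair the first gene was higher and the second lower in both libraries labelled Prf KO.

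**Figure D4:**
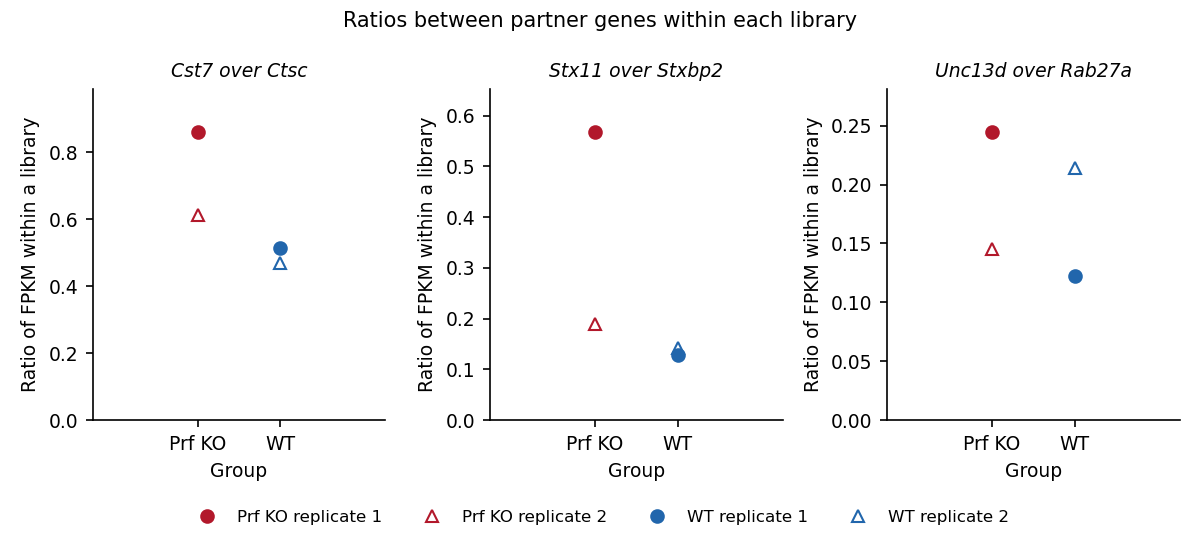
Ratio of FPKM between partner genes within each library, libraries labelled Prf KO (red) left of WT (blue), on linear axes that start at 0. Cst7 over Ctsc is higher in both libraries labelled Prf KO (0.860 and 0.611) than in either WT library (0.512 and 0.468), Stx11 over Stxbp2 is high mainly in Prf KO replicate 1 (0.567), and Unc13d over Rab27a overlaps.

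The share of the set's RNA held by its highest members largely restates the lower Nkg7 and Srgn values given above. The summed level of the 10 members was 1711 and 1837 FPKM in the libraries labelled Prf KO, against 1994 and 2243 FPKM in WT libraries. Nkg7 and Srgn made up 45.5% and 50.3% of that sum in the libraries labelled Prf KO, against 54.2% and 57.6% in WT libraries, without overlap.

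RNA from other cells was present and part of it differed between the groups. Most of these granule genes are also expressed by NK cells, and several, Srgn, Lamp1, Ctsc, Stxbp2 and Rab27a among them, by myeloid cells too. This list may not be complete, since myeloid expression was not tested here for any member, Cst7 and Stx11 included. In bulk RNA, fewer cells of a type and less RNA per cell cannot be told apart. Neutrophil markers (13 of 14 in the table) summed to 112 and 150 FPKM in the libraries labelled Prf KO, against 238 and 254 FPKM in WT libraries. Most of this was S100a8 (32.7 and 87.3 FPKM in Prf KO, against 137 and 130 FPKM in WT) and S100a9 (62.9 and 46.2 FPKM, against 76.4 and 77.8 FPKM). Csf3r, Ngp, Mmp8 and Retnlg were also lower in both libraries labelled Prf KO, and Ltf, Lcn2, Mmp9 and Cxcr2 overlapped. Camp and Mpo were lower in both libraries labelled Prf KO as well, but were low throughout (at most 2.69 FPKM). Camp was at 0 in Prf KO replicate 1 and Mpo at 0 in both libraries labelled Prf KO. Elane was at 1.59 FPKM in Prf KO replicate 1 and at 0 in the other 3 libraries. Macrophage and Kupffer cell markers (15 of 16) summed to 1669 and 2442 FPKM in the libraries labelled Prf KO, against 2446 and 2552 FPKM in WT libraries. Nearly all of this was Lyz2, the lysozyme gene of myeloid cells (1508 and 2391 FPKM in Prf KO, against 2387 and 2510 FPKM in WT). The other 14 summed to 161 and 51.2 FPKM in the libraries labelled Prf KO, against 58.3 and 41.0 FPKM in WT libraries. Among them Csf1r was higher in both libraries labelled Prf KO (38.2 and 24.3 FPKM, against 17.1 and 17.1 FPKM in WT). Of the weak markers (at most 3.99 FPKM each), Vsig4 was higher in both, and Emr1 and Spic were lower in both. Liver endothelial markers (14 of 14) summed to 487 and 131 FPKM in the libraries labelled Prf KO, against 281 and 67.5 FPKM in WT libraries. This sum was higher in replicate 1 than in replicate 2 of each group. In Prf KO replicate 1 the neutrophil sum, Lyz2, Srgn, Nkg7, Stxbp2, Ctsc and Rab27a had their lowest values of the 4 libraries. Lamp1 (254 FPKM), Cst7 (143 FPKM), Unc13d (14.2 FPKM) and Stx11 (10.3 FPKM) had their highest values there. So did the liver endothelial sum (487 FPKM) and the sum of the other 14 macrophage markers (161 FPKM). The groups overlapped for Lamp1, Ctsc, Rab27a and Unc13d. Any part of other cells in the members' values was not tested.

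Markers of other lymphocytes were low. NK cell markers (9 of 9) summed to 46.1 and 39.9 FPKM in the libraries labelled Prf KO, against 78.0 and 37.3 FPKM in WT libraries. The lectin-like receptor gene Klre1 had 29.6 and 19.4 FPKM in Prf KO, against 57.2 and 20.04 FPKM in WT, and Ncr1, which marks NK cells, was at 0 in 3 of the 4 libraries. B cell markers (8 of 8) summed to 26.9 and 65.4 FPKM in Prf KO, against 42.5 and 55.7 FPKM in WT. CD4 T cell markers (3 of 3) summed to 12.1 and 22.6 FPKM in Prf KO, against 6.13 and 25.5 FPKM in WT. Dendritic cell (7 of 7) sums were 14.8 and 16.03 FPKM in Prf KO, against 27.5 and 11.2 FPKM in WT. Mast cell and basophil markers (6 of 7) summed to 3.11 and 18.0 FPKM in Prf KO, against 3.70 and 1.71 FPKM in WT, with Tpsb2 at 0 in all 4. Hepatocyte markers (9 of 9) summed to 35.9 and 14.9 FPKM in Prf KO, against 21.9 and 19.7 FPKM in WT, with Ttr and Fgb at 0 in all 4.

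RefSeq promoter windows (GRCm38.p6, 250 bases before to 50 bases from the annotated start) were at hand for 8 of the 10 members, and the table held no entry for Ctsw and Unc13d. The windows of Cst7 and Nkg7 are shown because their groups lay apart in opposite directions under all 5 scalings, with replicates close together. Capitals mark matches, on either strand, to letters recognised by lymphocyte transcription factor families: TGTGGT for RUNX, GGAAGT for ETS and TCACAC for T-box factors, plus CACGTG, an E-box found upstream of many lysosomal genes. The Cst7 window lies at chr2:150570165-150570464 on the plus strand and the Nkg7 window at chr7:43436888-43437187 on the plus strand.
Cst7: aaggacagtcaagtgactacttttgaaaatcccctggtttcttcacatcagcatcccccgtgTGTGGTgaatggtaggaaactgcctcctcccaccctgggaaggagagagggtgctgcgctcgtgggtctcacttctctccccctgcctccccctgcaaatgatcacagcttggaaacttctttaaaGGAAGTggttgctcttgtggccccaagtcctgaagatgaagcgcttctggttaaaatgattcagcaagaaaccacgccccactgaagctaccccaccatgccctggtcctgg
Nkg7: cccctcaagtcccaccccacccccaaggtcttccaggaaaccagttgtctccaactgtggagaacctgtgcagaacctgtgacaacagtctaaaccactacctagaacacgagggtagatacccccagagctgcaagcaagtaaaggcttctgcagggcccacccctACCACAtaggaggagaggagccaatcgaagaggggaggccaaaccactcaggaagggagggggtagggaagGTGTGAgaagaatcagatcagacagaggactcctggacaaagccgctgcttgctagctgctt

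The Cst7 window held 1 RUNX and 1 ETS match, and the Nkg7 window 1 RUNX and 1 T-box match. Among the 10 windows of the 8 members, RUNX letters were present in 5, where 16.8% of all 32851 promoter windows held them. ETS letters were present in 5 (23.8% of all windows), T-box letters in 4 (14.5%) and the E-box in 3 (7.15%), among them Lamp1 with 4 E-box matches. The Stx11 window held no match to these 4 motifs. A match describes letters only, and binding was not measured.

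By the distance between log2(FPKM + 1) profiles centred over the 4 libraries, the 3 genes nearest to Cst7 among all tested genes were Cog1, a subunit of a Golgi tethering complex (distance 0.089), Msl2, a subunit of a histone acetyltransferase complex (0.091), and Dnajc4, a J-domain protein (0.091). Cog1 had 19.9 and 19.1 FPKM in the libraries labelled Prf KO, against 13.01 and 13.7 FPKM in WT libraries.

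The wider granule pathway was described with 8 gene lists holding 130 tested genes besides the members. No listed gene passed the test, with adjusted p-values of 0.866 or more. Of the 130, both libraries labelled Prf KO lay above both WT libraries for 13 and below them for 36 (27.7%), against 13.9% and 21.9% of all tested genes, and their median log2 fold was -0.064.

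In the pore and granzyme list (5 tested), 0 lay higher and 2 lower in both libraries labelled Prf KO. Gzma, a tryptase-like granzyme, had 124 ± 11.6 FPKM in the libraries labelled Prf KO and 212 ± 31.1 FPKM in WT libraries (SD, n = 2 each; log2 fold -0.77, SE 0.25). The other gene was Prf1 (log2 fold -0.29, SE 0.24, limma adjusted p = 0.873). Gzmb, the granzyme that triggers caspase-dependent death, had 519 ± 43.2 FPKM in the libraries labelled Prf KO and 480 ± 30.5 FPKM in WT libraries (SD, n = 2 each; log2 fold 0.11, or 0.028 to 0.20 with 1 library left out).

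Of 23 SNARE genes and partners, 0 lay higher and 8 lower in both libraries labelled Prf KO, with a median log2 fold of -0.18 (-0.070 without the library labelled Prf KO replicate 1). The vesicle SNARE gene Vamp4 had 13.6 ± 1.78 FPKM in the libraries labelled Prf KO and 19.4 ± 1.98 FPKM in WT libraries (log2 fold -0.48, SE 0.28). Vamp2, another vesicle SNARE gene, had a log2 fold of -0.41 (-0.13 without the library labelled Prf KO replicate 1). Napa, which encodes the alpha-SNAP cofactor of SNARE disassembly, had -0.47 (-0.061 without that library).

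Of 17 Rab GTPase and effector genes, 2 lay higher and 7 lower in both libraries labelled Prf KO (median -0.21, or -0.12 without the library labelled Prf KO replicate 1). The endosomal recycling GTPase gene Rab4a had 7.18 and 12.9 FPKM in the libraries labelled Prf KO, against 1.37 and 3.12 FPKM in WT libraries (log2 fold 1.77, SE 0.43, limma adjusted p = 0.866). Its paralog Rab4b had 87.2 and 181 FPKM in the libraries labelled Prf KO, against 265 and 199 FPKM in WT libraries (log2 fold -0.86, SE 0.36, and -0.34 without the library labelled Prf KO replicate 1). Rab37, a GTPase of secretory granules, had a log2 fold of -0.82 (SE 0.34, and -0.42 without that library).

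Among 14 transport and cytoskeleton genes 3 lay higher and 1 lower in both libraries labelled Prf KO, with a median log2 fold of 0.027 that was -0.11 without the library labelled Prf KO replicate 1. The genes with the smallest p were Dock8, an activator of Cdc42 (0.53, and 0.21 without that library), Wipf1, the partner of WASP (0.40, SE 0.26), and the formin gene Diap1 (-0.56, SE 0.34, -0.34 without that library and -0.33 without WT replicate 1). Among 27 genes of lysosome-related organelle biogenesis 1 was higher and 7 lower (median -0.052). The smallest p-values there were those of Dtnbp1, which encodes dysbindin (0.89, SE 0.37), Snapin, whose groups overlapped (-0.65), and Gnptg, a subunit of the enzyme that tags lysosomal proteins (-0.52, SE 0.28). Without the library labelled Prf KO replicate 1 these folds were 0.56, -0.21 and -0.30, and that of Snapin was -0.43 without WT replicate 1.

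Lysosome and granule membrane genes (15 tested) had 3 higher and 2 lower in both libraries labelled Prf KO. Tfeb, a transcription factor of lysosomal genes, had 17.7 ± 1.83 FPKM in the libraries labelled Prf KO and 10.9 ± 2.87 FPKM in WT libraries (SD, n = 2 each; log2 fold 0.67, SE 0.30, and 0.42 without WT replicate 1). The lysosomal membrane genes Laptm4b and Laptm4a had log2 folds of 1.24 (SE 0.52, and 0.74 without the library labelled Prf KO replicate 1) and 0.45 (SE 0.25). Among 15 other cathepsin, cystatin and processing genes 1 was higher and 4 lower in both (median -0.055). Ctsa, a lysosomal carboxypeptidase, stood at -0.63 (SE 0.28), the aspartic protease gene Ctse at -0.67 (SE 0.31) and Cst3, the secreted cystatin C, at -0.48 (SE 0.29), so the other named cystatin lay on the opposite side from Cst7. Without the library labelled Prf KO replicate 1 the folds of Ctsa, Ctse and Cst3 were -0.42, -0.37 and -0.28.

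Enzymes that build the sugar chains of serglycin (14 tested) had 3 higher and 5 lower in both libraries labelled Prf KO. The smallest p-values were those of the sulphotransferase genes Chst15 (log2 fold 1.06, SE 0.38, and 0.71 without WT replicate 1), Chst11 (-1.04, SE 0.46) and Chst12 (-0.57, SE 0.30, and -0.26 without the library labelled Prf KO replicate 1). Chst15 had 8.37 and 6.91 FPKM in the libraries labelled Prf KO, against 2.22 and 4.27 FPKM in WT libraries, and Chst11 had 0.601 and 1.27 FPKM in Prf KO, against 3.10 and 2.74 FPKM in WT.

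**Figure D5:**
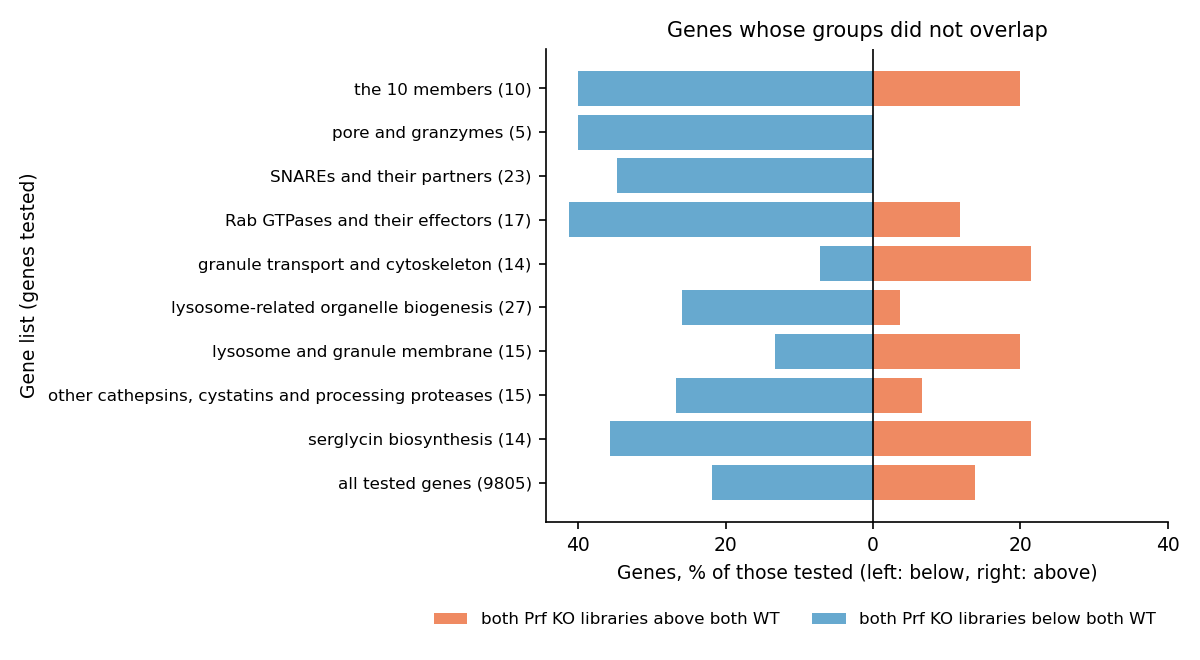
Share of tested genes, in percent, for which both libraries labelled Prf KO lay above (orange, right) or below (blue, left) both WT libraries, for the 10 granule genes, each pathway list and all tested genes (numbers tested in brackets). The members have 2 genes above and 4 below, and all tested genes 13.9% above and 21.9% below.

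Reads from exons shared with another gene may belong to either gene; the labels' protocol names a TruSeq RNA kit, and the sources used here do not state that strand was used in counting. Among the members, 249 exonic bases of Lamp1 overlapped Grtp1 on the opposite strand, which stood at 0.233 FPKM or less, and 9 bases of Ctsw overlapped Fibp on the opposite strand. Rab27a shared 149 bases with a processed pseudogene on its own strand. Among the other named genes Rab4b overlapped Gm21983 on its own strand, and Snapin, Gnptg, Ctsa, Chst15 and Cog1 overlapped genes on the opposite strand, so their values are uncertain to that extent. Diap1 was not found under that symbol in the annotation used and was not checked. No other annotated gene held a copy of a member's transcript over at least 250 bases at 85% identity.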

How the data were processed

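The authors deposited a table with a column for each library and a row for each gene symbol. No unit is stated; the deposited values were taken to be FPKM, since they are fractional, their column totals differ and long transcripts reach the lowest values. The submitters' processing notes name Bowtie 0.12.2 and the build mm8 without saying what each was used for. The sources used here give neither the quantification tool nor the annotation. Low values showed no common step from which reads could be recovered, so depth is unknown and no counting interval was computed.

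Values were analysed as log2(FPKM + 1) without rescaling, for genes with a mean of at least 1, in R 4.3.3 with limma 3.58.1 (moderated test with intensity trend, two-sided, Benjamini-Hochberg adjustment over all tested genes, threshold 0.05). Fold changes understate the change of weakly expressed genes. Alternatives were the replicate number as a block, each library left out, no filter or a mean of at least 5, pseudocounts of 0.1 and 5, 4 rescalings, no trend, robust moderation and array weights. With a library left out, the lone partner was given the spread of the other group. The code was tested on simulated data. Transcript copies were sought with BLAST 2.17.0 in GENCODE M21, which belongs to a later build than mm8 and served only for lengths and overlaps. Promoter windows are from RefSeq. Figures were drawn with matplotlib 3.10.9.

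The 10 members, the 8 pathway lists and the marker lists were chosen with earlier results of these data known. Genes named besides the members were Prf1, the 3 genes per list with the lowest unadjusted p and the 3 genes nearest to the member with the smallest p; any other was picked later, as stated beside it.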

Additional observations from a re-analysis of the deposited data

How the results depend on the processing

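No member passed the threshold in any of the 16 other settings, where the smallest adjusted p of a member was 0.112 by limma. Over all genes the count past the threshold was 0 with all 4 libraries and ranged from 0 to 1 with 1 library left out (Atp5k without WT replicate 2, H2-Q6 without the library labelled Prf KO replicate 2). With 1 library left out, the groups lay apart for 2 to 4 members with Prf KO higher (26.1% to 31.9% of all tested genes) and for 4 to 6 with Prf KO lower (34.2% to 48.9%), and the members' median log2 fold was -0.20 to -0.043. That median was -0.038 without rescaling and 0.042, 0.069 and 0.15 with upper-quartile, quantile and CD8 T cell gene scaling; the last left 1 member lower in both libraries labelled Prf KO. Of 176 single-gene folds under other settings, Prf1 included, 7 changed sign: Lamp1 (-0.25 without the library labelled Prf KO replicate 1, range -0.25 to 0.38 over the libraries left out), Ctsc (-0.049 without WT replicate 1, -0.17 without the library labelled Prf KO replicate 2, range -0.17 to 0.21), Unc13d (-0.070 without WT replicate 1, range -0.070 to 0.30) and Rab27a (0.088 with CD8 T cell gene scaling, 0.11 without WT replicate 1, 0.16 without the library labelled Prf KO replicate 1, range -0.36 to 0.16). The causes were not tested. Across all tested genes the replicate numbers were not shown to pair the libraries: deviations of same-numbered libraries from their group means correlated at 0.068. Some marker sums did follow the replicate number. Those of liver endothelium, NK cells, hepatocytes and macrophages without Lyz2 were higher in replicate 1 of both groups. Those of neutrophils, B cells and CD4 T cells were higher in replicate 2 of both groups. Whether same-numbered libraries shared a preparation was not tested. The fit with the replicate block called 0 genes (542 at an unadjusted p under 0.05, against 470 without the block) and 0 members. Depth is unknown, and 2 libraries a group with a median SE of 0.34 on the log2 scale limit what the test can call.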
